A study of Mus musculus with 12 samples.

Results

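The genes described here are Trp53, which encodes the tumour suppressor p53, and 9 genes that p53 is known to activate: Mdm2, Ccng1, Zmat3, Sesn1, Phlda3, Trp53inp1, Eda2r, Aen and Gadd45a. They were chosen by symbol, through the Entrez identifiers of the deposited count table, and all 10 were found among its 27179 identifiers. Counts came from cells of 1 mouse T-cell leukemia (T-ALL, acute lymphoblastic), the primary leukemia ALL101, of genotype Vav-tTA;TRE-GFP-shIkaros, in which a transactivator under the blood-cell promoter Vav drives a GFP-linked hairpin against Ikaros. Cells were sorted from the spleens of 3 untreated leukemic recipient mice (GFPhigh) and of 3 mice given doxycycline for 3 days (GFPmid), which per the labels turns the hairpin off and restores endogenous Ikaros. The gates are those the labels give, but the library name of untreated mouse 3 has INJ in place of the wording on sorting, and whether its cells were sorted like the others is not known. The transgenes are shared by both groups, and hairpin loss, doxycycline itself and the sorting gate cannot be told apart here. All mice carry the same leukemia, so the spread between mice is that of 1 leukemia and not of separate ones. Each RNA was sequenced in 2 runs, which were summed, so n is the number of mice.

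The transcription factor p53 is kept low by the ubiquitin ligase MDM2, which is itself made from a p53 target gene, so the pair forms a feedback loop. When DNA damage or oncogene signals release p53 from MDM2, it binds a DNA element made of paired half-sites and raises genes for cell-cycle arrest, cell death, DNA repair and metabolism. In T-ALL the loop is often disabled through loss of Cdkn2a, whose alternative product ARF inhibits MDM2. Because p53 is controlled mainly at the protein level, its messenger RNA does not report its activity, and no protein was measured here.

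The 10 genes did not move in 1 direction. After doxycycline 4 rose (Gadd45a, Trp53inp1, Sesn1 and Mdm2) and 3 fell (Trp53, Aen and Phlda3), while Zmat3 and Ccng1 did not pass the test and Eda2r had no counts. Of the 9 members tested, the 4 that rose stand against 24.8% of all 13134 genes tested that rose, and the 3 that fell against 25.2% that fell (edgeR quasi-likelihood test, adjusted p under 0.05). Calls in either direction covered 50.0% of all genes tested. Without Trp53 itself, 4 of the 8 targets tested rose and 2 fell (Aen and Phlda3), with a median log2 difference of 0.44. The Phlda3 call was lost in 10 of 17 alternatives. The groups of mice did not overlap for 6 of the 9 tested members, against 61.2% of all genes tested: 4 lay higher and 2 lower after doxycycline, beside 30.2% and 30.9% of all genes. The log2 differences (doxycycline minus untreated) ran from -0.89 to 1.90 with a median of 0.28, beside a median of -0.0037 over all genes tested. That median is the value of Zmat3, and it was 0.18 without untreated mouse 2 and 0.45 without untreated mouse 3.

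**Figure D1:**
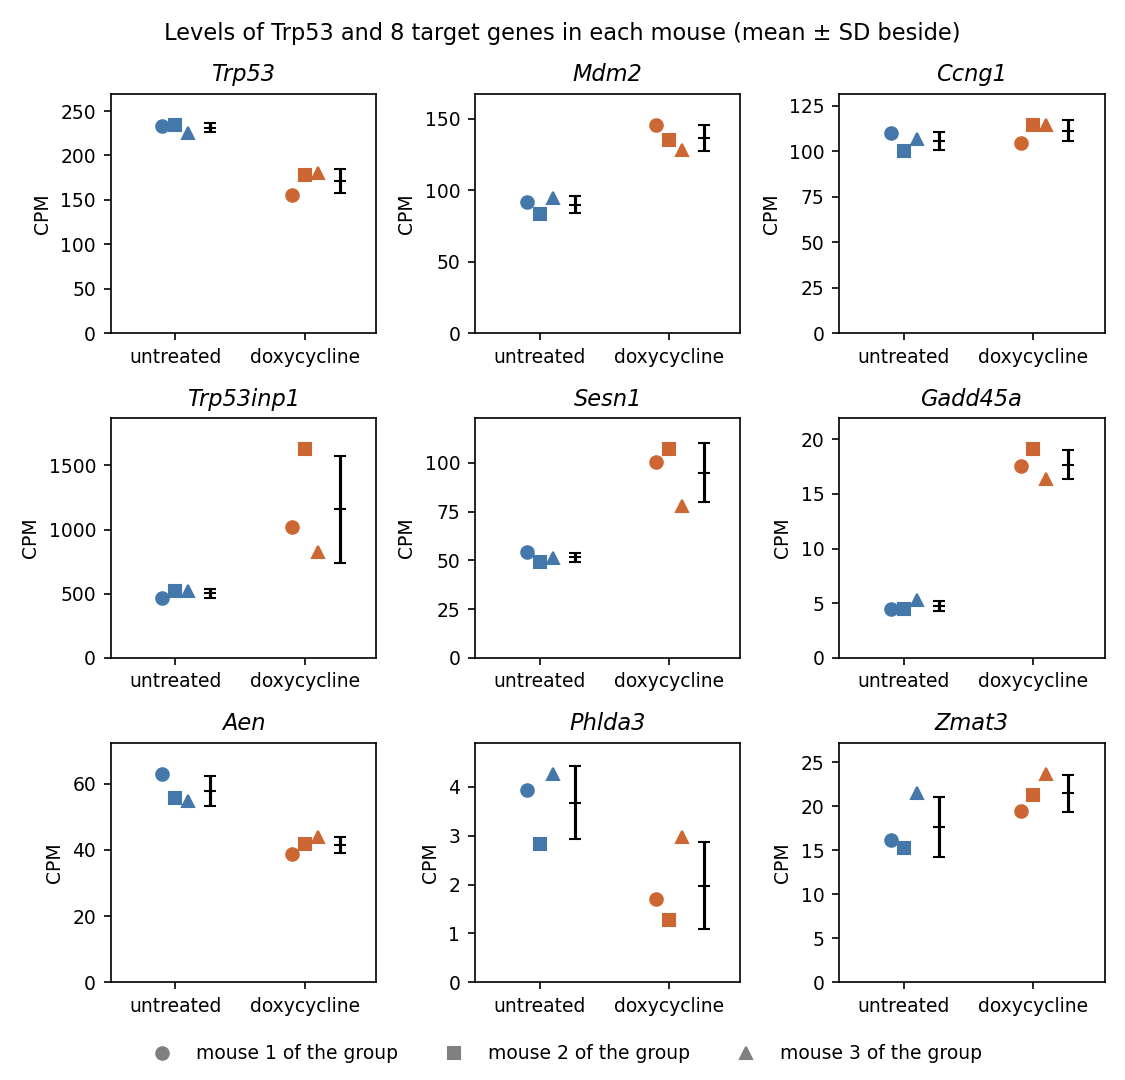
Levels of Trp53 and its 8 detected target genes, in CPM (counts per 1000000 counts, on scaled library totals), in each of the 3 untreated and 3 doxycycline mice (circle, square and triangle for mice 1, 2 and 3 of a group), with the mean and SD of each group beside the points. Mdm2, Trp53inp1, Sesn1 and Gadd45a lie higher in every doxycycline mouse, Trp53 and Aen lower, and the groups of Ccng1, Zmat3 and Phlda3 overlap.

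The bases around each gene start were searched for p53 half-sites, to show which of these genes carry the element there. The 300-base windows came from RefSeq (GRCm38.p6, the assembly of mm10) and run from 250 bases before to 50 after each start. A half-site here is an exact 10-base match to the p53 half-site consensus, whose 4-base core is CAAG or CATG or CTAG or CTTG, and which reads alike on both strands. A full site is a pair of half-sites up to 1 base apart, with both cores intact and up to 3 mismatches outside them. Of all 32851 windows, 8.36% held a half-site and 1.06% a full site. Windows were given for 8 of the 10 members, and 6 of the 8 held a half-site (Trp53, Mdm2, Ccng1, Sesn1, Aen and Gadd45a), whereas Phlda3 and Eda2r had none. Trp53inp1 and Zmat3 had no entry. Outside the members, the full sites of Bbc3, Gtse1, Tigar and Wrap53, which did not pass the test, are not printed. A full site was in 2 members, Trp53 (chr11:69580284-69580303, plus strand) and Aen (chr7:78895937-78895956, plus strand), each with 3 mismatches, the most allowed. They are printed with the full sites of Cdkn1a (chr17:29090928-29090947, plus strand), Bax (chr7:45467079-45467099, minus strand) and Rps27l (chr9:66946296-66946315, plus strand), 3 targets outside the members that also fell, with the cores in capitals, 5′ to 3′:
Trp53: ggaCTTGcccttaCTTGtta
Aen: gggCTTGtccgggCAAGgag
Cdkn1a: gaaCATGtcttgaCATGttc
Bax: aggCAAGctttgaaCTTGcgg
Rps27l: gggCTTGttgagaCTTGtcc

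The members with half-sites but no full site are Mdm2, Gadd45a, Sesn1 and Ccng1. Over all 796 tested genes with a half-site in their window 25% rose and 23.9% fell, near the shares of all genes, and of the 18 tested pathway genes with one, members included, 4 rose and 7 fell. For Sesn1 the RefSeq window lies inside the gene's span in GENCODE M21, at a start other than its outermost one. Their 10-base half-sites are printed with 10 bases on each side, the core again in capitals. They lie at chr10:117710925-117710954 (Mdm2, minus strand), chr6:67037428-67037457 (Gadd45a, minus strand), chr10:41887256-41887285 (Sesn1, plus strand) and chr11:40755452-40755481 (Ccng1, minus strand):
Mdm2: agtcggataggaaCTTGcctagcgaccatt
Gadd45a: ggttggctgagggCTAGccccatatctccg
Sesn1: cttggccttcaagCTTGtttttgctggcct
Ccng1: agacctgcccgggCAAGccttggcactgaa

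Of the 9 tested pathway genes with a full site, listed members and other listed genes together, 5 fell (Trp53, Aen, Cdkn1a, Bax and Rps27l), 0 rose, and Bbc3, Gtse1, Tigar and Wrap53 did not pass. Their sites had 3 mismatches in Trp53, Aen, Bbc3, Tigar and Wrap53, 2 in Bax, and 1 in Cdkn1a, Rps27l and Gtse1. Wrap53 starts next to Trp53 on the other strand and shares its site. Over all 107 tested genes with a full site in their window, 20.6% rose and 27.1% fell, beside 24.7% and 25.6% of the 9897 tested genes that have a window. A match is a run of letters, and whether p53 binds there was not measured. The elements that p53 is best known to use in Mdm2 and Gadd45a lie inside introns, which these windows mostly do not cover.

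Trp53 messenger RNA fell 1.35-fold. It was at 233, 235 and 226 CPM in the untreated mice and at 155, 178 and 181 CPM in the doxycycline mice. Every doxycycline mouse lay below every untreated one. The log2 difference was -0.43 ± 0.07 (SE, edgeR adjusted p = 0.00182). Trp53 (Entrez 22059) codes for protein and lies on the plus strand of chr11:69580348-69591873 (GRCm38). The mouse genome also holds a processed pseudogene of it, and how reads with several matches were counted is not given in the sources used here, so reads shared with that copy are uncertain. Wrap53, its divergent neighbour, which encodes a telomerase-associated protein, was at 29.2 ± 2.31 CPM in untreated mice and 31.4 ± 2.34 CPM after doxycycline (SD, n = 3 each) and did not pass (edgeR adjusted p = 0.369). Whether the 2 genes of this bidirectional start differ in their response was not tested. The 3 genes whose centred log2 CPM lay nearest to that of Trp53 over the 6 mice, by root mean square distance among 13133 genes, were Txn1, encoding thioredoxin (0.0170), Ptdss2, encoding a phosphatidylserine synthase (0.0235), and Nol6, encoding a nucleolar protein (0.0277).

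Mdm2 (Entrez 17246, chr10:117688875-117710758, minus strand), the gene of the main p53 antagonist, rose 1.51-fold. Untreated mice held 92.0, 83.1 and 94.7 CPM and doxycycline mice 146, 135 and 128 CPM. No doxycycline mouse fell within the untreated range, and the log2 difference was 0.60 ± 0.08 (edgeR adjusted p = 0.000573). Its paralog Mdm4, whose protein binds and restrains p53 without strong ligase activity, rose by 0.63 ± 0.09 log2 units from 67.4 ± 2.74 to 104 ± 12.5 CPM, with an edgeR adjusted p of 0.00102. Within each mouse, where no library scaling enters, the ratio of Mdm2 to Trp53 counts per kilobase (kb) of gene length was 0.243, 0.219 and 0.259 in the untreated mice and 0.579, 0.469 and 0.436 in the doxycycline mice. The mean log2 ratio differed by 1.03. The pairs were chosen after the values were seen, so their ratios restate the differences of the single genes. An exact permutation of mice between groups gave p = 0.1 for each pair. That is its lowest possible value with 3 mice per group, so it cannot decide. For Mdm4 to Trp53 the ratio went from between 0.148 and 0.167 to between 0.269 and 0.369, a difference of 1.06 log2 units.

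**Figure D2:**
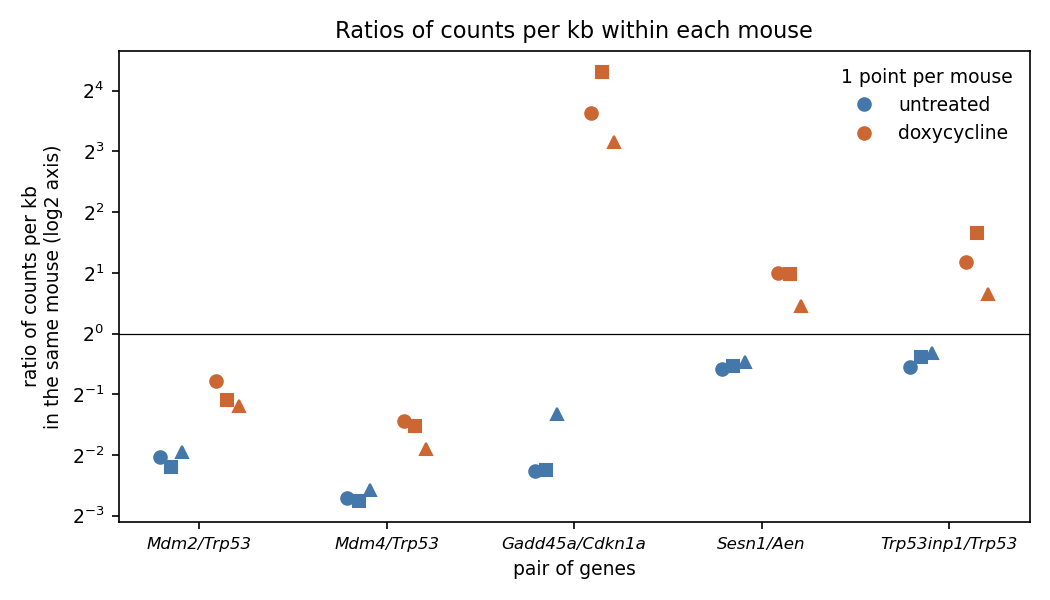
Ratios of counts per kb of gene length for 5 pairs of genes within each mouse, on a log2 axis (circle, square and triangle for mice 1, 2 and 3 of a group). For every pair the 3 doxycycline mice lie above the 3 untreated mice, from 1.03 log2 units for Mdm2 to Trp53 up to 5.64 for Gadd45a to Cdkn1a.

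Ccng1 (Entrez 12450, chr11:40748552-40755309, minus strand), encoding cyclin G1, which recruits a phosphatase to MDM2 and is among the most regular p53 targets, did not pass. It was at 109.9, 99.99 and 107 CPM in untreated mice and at 105, 115 and 115 CPM after doxycycline, so the groups overlapped. The log2 difference was 0.08 with a 95% interval of -0.08 to 0.24 (edgeR adjusted p = 0.391), an interval that leaves room for a rise or a fall but not for one of the size seen in Mdm2. Its paralog Ccng2, encoding cyclin G2, rose 2.03-fold from 98.1 ± 18.0 to 199 ± 14.2 CPM, with an edgeR adjusted p of 0.000789.

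Gadd45a (Entrez 13197, chr6:67035096-67037407, minus strand), a stress-response gene whose protein binds PCNA and p21 and activates p38 and JNK signalling, had the largest difference of the members. Untreated mice held 4.49, 4.43 and 5.26 CPM and doxycycline mice 17.5, 19.1 and 16.4 CPM. Every doxycycline mouse was far above the highest untreated one, and the gene rose 3.74-fold (log2 difference 1.90 ± 0.13, edgeR adjusted p = 3.95e-05). Of its exon bases in GENCODE M21, 19.1% are overlapped on the other strand by the noncoding gene E230016M11Rik. That gene was at 0.241 to 0.466 CPM in untreated mice and 0.460 to 0.666 CPM after doxycycline, and it did not pass (edgeR adjusted p = 0.104). Of the other Gadd45 genes, Gadd45g was at 3.35, 2.05 and 4.06 CPM in untreated mice and 11.1, 19.7 and 9.71 CPM after doxycycline and rose by 2.10 ± 0.35 log2 units (edgeR adjusted p = 0.00286). Gadd45b, at 1.03 to 1.86 CPM over the 6 mice, had a log2 difference of 0.35 ± 0.28 and did not pass (edgeR adjusted p = 0.329).

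Sesn1 (Entrez 140742, chr10:41810574-41908436, plus strand), encoding sestrin 1, which holds back mTORC1 and oxidative stress, rose 1.85-fold. It was at 54.1, 49.4 and 51.0 CPM in untreated mice and 100.4, 107 and 77.8 CPM after doxycycline, with no overlap and doxycycline mouse 3 lowest of its group. The log2 difference was 0.88 ± 0.12 (edgeR adjusted p = 0.000625). Sesn3, a paralog best known as a Foxo target, rose by 0.81 ± 0.07 log2 units from 30.2 ± 1.41 to 52.9 ± 1.59 CPM, with an edgeR adjusted p of 0.000114. Sesn2, a p53 and ATF4 target, was at 12.7 ± 0.388 and 13.2 ± 2.61 CPM and did not pass (edgeR adjusted p = 0.791).

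Trp53inp1 (Entrez 60599, chr4:11156441-11174379, plus strand), whose nuclear protein promotes p53 phosphorylation and also takes part in autophagy, rose 2.30-fold. Untreated mice were at 465, 521 and 523 CPM and doxycycline mice at 1017, 1625 and 827 CPM. All doxycycline mice were above all untreated mice, and the doxycycline mice were widely spread, with mouse 2 highest. The log2 difference was 1.20 ± 0.25 (edgeR adjusted p = 0.00972), and without doxycycline mouse 2 it was 0.89 (adjusted p = 0.000400). Adjusted p-values over all 17 alternatives ran from 0.000215 to 0.0391. Its paralog Trp53inp2, an autophagy gene, rose 6.16-fold from 2.05 ± 0.138 to 12.7 ± 4.06 CPM, with an edgeR adjusted p of 0.000119.

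Aen (Entrez 68048, chr7:78895927-78911209, plus strand), encoding an apoptosis-enhancing nuclease that p53 induces, fell 1.39-fold. It was at 62.9, 55.6 and 54.7 CPM in untreated mice and 38.8, 41.7 and 43.8 CPM after doxycycline, without overlap, and the log2 difference was -0.48 ± 0.08 (edgeR adjusted p = 0.00207). Together with Trp53 it is 1 of the 2 members with a full p53 site in the window printed above, and both fell. Of all 107 tested genes with a full site 27.1% fell, near the 25.6% of all tested genes with a window. Isg20, a paralogous exonuclease gene induced by interferon, rose by 1.14 ± 0.15 log2 units (edgeR adjusted p = 0.000643), while Isg20l2 had a log2 difference of -0.17 ± 0.08 and did not pass (edgeR adjusted p = 0.111).

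Phlda3 (Entrez 27280, chr1:135766085-135769134, plus strand), whose pleckstrin-homology protein competes with AKT for membrane lipids, was close to the threshold. Its raw counts were 117, 94 and 128 in the untreated mice and 58, 57 and 129 in the doxycycline mice, which is 3.92, 2.83 and 4.26 CPM against 1.71, 1.27 and 2.97 CPM. Doxycycline mouse 3 lay inside the untreated range. The log2 difference was -0.89 ± 0.33 (edgeR adjusted p = 0.0499), and it passed in 7 of 17 alternatives, with adjusted p-values from 0.00974 to 0.193. The call was lost when any of 4 mice was left out: untreated mouse 1 (adjusted p = 0.124), untreated mouse 3 (0.121), doxycycline mouse 1 (0.145) and doxycycline mouse 2 (0.121). In the last case the log2 difference was -0.63. Its run 1 and run 2 values differed by up to 51.1% in a mouse, against at most 16.4% for every other detected member.

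Zmat3 (Entrez 22401, chr3:32334792-32365665, minus strand), encoding an RNA-binding zinc-finger protein that is a regular p53 target, was at 16.2, 15.2 and 21.5 CPM in untreated mice and 19.4, 21.2 and 23.6 CPM after doxycycline. Untreated mouse 3 lay among the doxycycline mice. The log2 difference of 0.28 (95% interval -0.04 to 0.61) did not pass (edgeR adjusted p = 0.132). Without untreated mouse 3 it was 0.45 and passed (adjusted p = 0.0184), and over all 17 alternatives the adjusted p ran from 0.0129 to 0.385. That is the mouse whose sorting is uncertain.

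Eda2r (Entrez 245527, chrX:97333837-97377234, minus strand), encoding the ectodysplasin A2 receptor, is a p53 target of many tissues and had 0 counts in all 6 mice. With 0 counts, levels up to 0.0666 to 0.101 CPM per mouse are allowed (3 counts, counting error only), so a change below that level was not detectable at this depth.

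Per length, Trp53 was the highest of the 10 in untreated mice and Trp53inp1 the highest after doxycycline. In untreated mice Trp53 stood at 124 ± 2.61 CPM per kb, Trp53inp1 at 92.6 ± 6.12, Ccng1 at 30.3 ± 1.45, Mdm2 at 29.7 ± 2.00, Aen at 22.4 ± 1.74 and Sesn1 at 15.4 ± 0.715 CPM per kb (SD, n = 3). Gadd45a followed at 3.86 ± 0.376, Phlda3 at 2.50 ± 0.509 and Zmat3 at 2.26 ± 0.431 CPM per kb. Ccng1 and Mdm2 overlapped in that order, as did Phlda3 and Zmat3. After doxycycline Trp53inp1 was at 213 ± 76.7, Trp53 at 91.7 ± 7.43, Mdm2 at 45.0 ± 2.96, Ccng1 at 31.9 ± 1.63 and Sesn1 at 28.5 ± 4.58 CPM per kb. Aen was then at 16.1 ± 0.979, Gadd45a at 14.4 ± 1.10, Zmat3 at 2.75 ± 0.271 and Phlda3 at 1.35 ± 0.602 CPM per kb. In that group Ccng1 overlapped Sesn1, and Aen overlapped Gadd45a, which in untreated mice lay well below it.

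**Figure D3:**
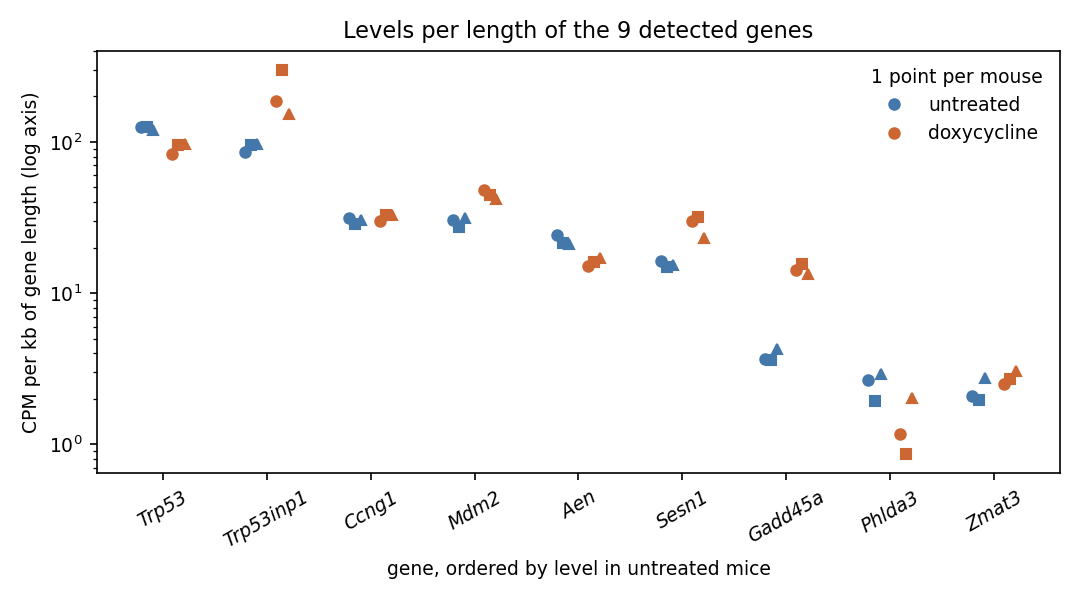
Levels of the 9 detected genes in CPM per kb of deposited gene length, on a log axis, 1 point per mouse (circle, square and triangle for mice 1, 2 and 3 of a group). Trp53inp1 lies below Trp53 in the untreated mice (85.6 to 96.4 against 121 to 126) and above it after doxycycline (152 to 299 against 83.1 to 96.7).

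From mouse to mouse the called members shared 1 feature. Doxycycline mouse 3 was the treated mouse nearest to the untreated mice in all 7 of them: lowest for Mdm2, Sesn1, Trp53inp1 and Gadd45a, and highest for Trp53, Aen and Phlda3. For Trp53 it was nearly tied with doxycycline mouse 2 (180.7 against 177.7 CPM). In run 1 mouse 2 was the higher for Trp53 (181.9 against 180.6 CPM on run totals). Over all 6571 genes called, mouse 3 was nearest in 55.2%, and over the 28 other pathway genes called in 64.3%. Ikzf1, the gene of Ikaros, stood at 1438, 1523 and 1495 CPM in the doxycycline mice, against 153, 149.7 and 159 CPM in the untreated ones. Whether its level bears on the order of the mice was not tested. The largest difference from the untreated mice was not shared, being in mouse 1 for Mdm2, Trp53 and Aen and in mouse 2 for Sesn1, Trp53inp1, Gadd45a and Phlda3.

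Among the genes that control p53 protein, 4 of 18 tested rose and 4 fell (22.2% each), near the 24.8% and 25.2% of all genes tested, and the count of lower genes was 2 without untreated mouse 1 or 2. Besides Mdm4, Rchy1, a p53-induced ubiquitin ligase gene, rose by 0.46 ± 0.08 log2 units, and the coactivator gene Ep300 by 0.46 ± 0.08 (edgeR adjusted p = 0.00206 and 0.00217). Atm, the kinase gene at the head of the double-strand break response, fell by 0.36 log2 units from 249 ± 18.4 to 194 ± 12.7 CPM, with an edgeR adjusted p of 0.00584. Cdkn2a was detected, at 2.08, 1.05 and 5.85 CPM in untreated mice and 3.17, 4.13 and 7.98 CPM after doxycycline. Its groups overlapped and it did not pass (log2 difference 0.77 ± 0.67, edgeR adjusted p = 0.377), though it did without untreated mouse 3 (log2 difference 1.71, adjusted p = 0.0309, in a range over alternatives of 0.0309 to 0.749). The log2 difference was 0.30 without doxycycline mouse 3 and 0.36 without untreated mouse 2. A single count per gene does not separate its ARF from its p16 transcript.

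Of the 33 other p53 targets tested, 11 (33.3%) were higher and 9 (27.3%) lower after doxycycline, beside 24.8% and 25.2% of all genes tested. Their median log2 difference was 0.05. The number higher was 7 when untreated mouse 1, untreated mouse 2 or doxycycline mouse 1 was left out. Including the members, 15 of 41 targets tested rose and 11 fell. In the arrest group 4 of 7 rose and 2 fell. Cdkn1a, encoding the CDK inhibitor p21, had the largest difference of all listed genes and fell 13.2-fold: it was at 35.7, 34.8 and 21.7 CPM in untreated mice and 2.35, 1.60 and 3.04 CPM after doxycycline (log2 difference -3.72 ± 0.29, edgeR adjusted p = 0.000176). Gadd45a, by contrast, rose, and as a description of the pair the ratio of Gadd45a to Cdkn1a per kb went from 0.208, 0.210 and 0.400 to 12.3, 19.7 and 8.94. Psrc1, a p53-inducible spindle gene, fell 2.95-fold from 31.7 ± 0.996 to 10.7 ± 1.92 CPM, with an edgeR adjusted p of 0.0001. Ptprv, a phosphatase gene that mouse p53 induces, rose 2.54-fold and the kinase gene Plk3 2.11-fold (edgeR adjusted p = 0.000293 and 0.000805).

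Among 11 death genes 1 rose and 4 fell (9.09% and 36.4%), beside 24.8% and 25.2% of all genes tested. Fas, the death receptor gene, rose 4.38-fold from 6.56 ± 0.455 to 28.8 ± 7.49 CPM, with an edgeR adjusted p of 0.000196. Bax, encoding the pore former of the mitochondrial death pathway, fell by 0.51 log2 units from 70.9 ± 2.73 to 49.8 ± 6.35 CPM, Siva1 by 0.82 and Ei24 by 0.49 (edgeR adjusted p = 0.00301, 0.000977 and 0.000985). The BH3-only genes did not pass. Bbc3, encoding PUMA, was at 3.12, 2.89 and 4.79 CPM in untreated mice and 5.94, 14.8 and 5.11 CPM after doxycycline (log2 difference 1.26 ± 0.46, edgeR adjusted p = 0.0582). With DESeq2 its adjusted p was 0.00373, in a range over alternatives of 0.00373 to 0.180. Its groups did not overlap, with doxycycline mouse 2 far the highest. Without doxycycline mouse 2 the log2 difference was 0.63 (adjusted p = 0.0693). Bbc3 passed in 4 of 17 alternatives, DESeq2 among them. The others were run 2 alone (adjusted p = 0.0384), without doxycycline mouse 3 (0.0290), and without both untreated mouse 3 and doxycycline mouse 2 (0.00520). Fas kept its call in 17 of 17 alternatives, so both Fas and Bbc3 rose in each of those 4. Pmaip1, encoding NOXA, stayed under 1 CPM in every mouse (edgeR adjusted p = 0.305).

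Of 15 repair and metabolism genes 6 rose and 3 fell (40% and 20%), beside 24.8% and 25.2% of all genes tested. Only 3 rose when untreated mouse 1, untreated mouse 2 or doxycycline mouse 1 was left out. Ephx1, an epoxide hydrolase gene, rose 4.25-fold from 4.76 ± 0.990 to 20.2 ± 2.14 CPM, with an edgeR adjusted p of 9.03e-05. Gls2, a mitochondrial glutaminase gene, fell 3.73-fold, Pank1, a pantothenate kinase gene, 2.43-fold, and Rps27l, a ribosomal protein paralog with near-identical copies and thus an uncertain level, 1.53-fold (edgeR adjusted p = 0.00112, 0.00264 and 0.00259). Of 14 tested paralogs of the members, Mdm4 and Sesn2 counted again, 6 rose and 2 fell. These are 42.9% and 14.3%, beside the same 24.8% and 25.2% of all genes tested. The 2 that fell, named after their values were seen, were Tnfrsf19, a receptor gene related to Eda2r, from 11.7 ± 3.66 to 3.78 ± 0.463 CPM, and Phlda1, related to Phlda3, from 103.7 ± 17.9 to 61.5 ± 4.60 CPM (edgeR adjusted p = 0.000862 and 0.00160). The p53 relatives Trp63 and Trp73 were below the filter on low counts, with 0 counts of Trp63 in every mouse.

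**Figure D4:**
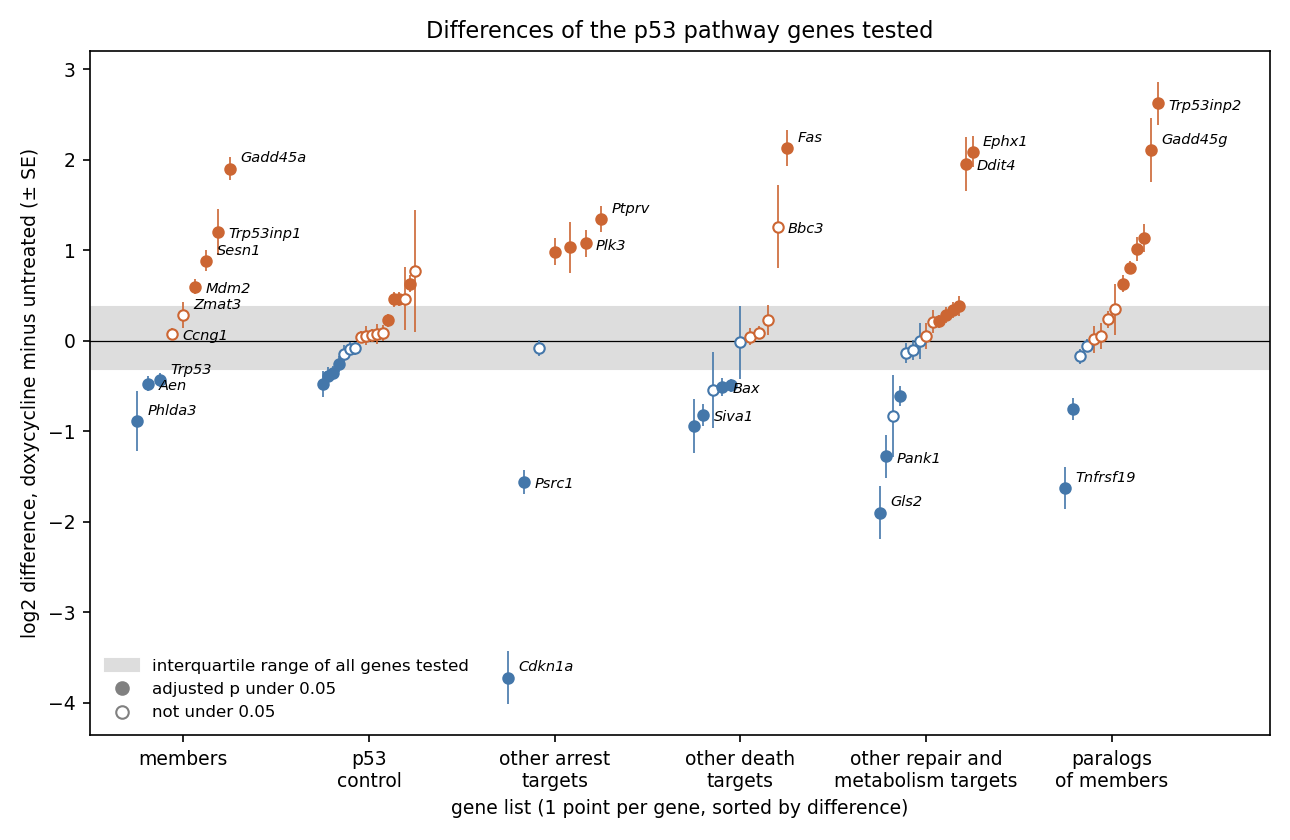
Log2 difference (doxycycline minus untreated, ± SE) of every tested gene of the 6 lists, 1 point per gene, filled where the edgeR adjusted p was under 0.05, with the interquartile range of all genes tested as a grey band (-0.31 to 0.38). Each list has filled points on both sides of 0, and Cdkn1a at -3.72 and Trp53inp2 at 2.62 are the ends of the range.

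Totals were 29904744 to 44949303 counts per mouse, and Ikzf1, which the hairpin targets, had risen 9.66-fold in the doxycycline mice, the direction its labels give. The T-cell markers summed to 4920 to 4979 CPM in untreated mice and to 5585 to 5820 CPM after doxycycline (5 of 9 rose and 1 fell). Markers of other cells were not equal between groups. By mean the highest in both groups was Pecam1, of the stroma list, followed by Itgam, of the myeloid list. The 8 myeloid markers summed to 22.5 to 40.9 CPM in untreated mice and 63.6 to 84.3 CPM after doxycycline, with 3 higher and 3 lower. Itgam rose from 9.86 ± 0.820 to 44.1 ± 5.52 CPM and Csf1r from 4.51 ± 1.47 to 15.4 ± 5.03 CPM, and Adgre1 also rose. Mpo, S100a8 and S100a9 fell, and Lyz2 did not pass. The 7 erythroid markers summed to 7.32 to 60.9 and 86.1 to 109 CPM, with 2 higher and 0 lower. Untreated mouse 3, whose sorting is uncertain, was at 60.9 CPM against 13.4 and 7.32 CPM in the other untreated mice. The 5 stroma markers summed to 121 to 151 and 208 to 219 CPM, nearly all of it Pecam1 (2 higher, 0 lower). Cdh5, Vwf and Col3a1 of that list were at most at 0.369 CPM in any mouse. The 6 B-cell markers summed to at most 0.821 CPM and the 4 NK-cell markers to at most 0.503 CPM in any mouse (none rose, and 1 NK-cell marker fell), and the B-cell factor gene Pax5 was at 0. What part these cells have in the differences of the p53 genes was not tested, and fewer cells of a type cannot be told apart from less RNA per cell in sorted bulk samples.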

How the data were processed

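RNA-seq was made from sorted T-ALL cells of 3 untreated and 3 doxycycline mice, 2 runs each (12 libraries). The values the authors deposited are raw read counts by Entrez identifier, beside a gene length. CASAVA 1.8.1, featureCounts and the mm10 build are named in the submitters' processing notes. The aligner, annotation, strand setting and treatment of reads with several matches are each not given in the sources used here. Counts of the whole-series table equalled those of all 12 library tables.

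Runs were summed per mouse. Symbols came from RefSeq (GRCm38.p6) by Entrez identifier (93.0% matched), and overlaps from GENCODE M21. edgeR 4.0.16 (R 4.3.3) was used: filterByExpr, TMM factors, robust quasi-likelihood F test of doxycycline against untreated, Benjamini-Hochberg adjustment over all genes tested at 0.05. SE was taken as the absolute log2 difference over the root of F, and CPM uses TMM-scaled totals, with 29821424 to 45042629 scaled counts per mouse. The script was also run on simulated data in which few genes changed. In these data 50.0% of genes tested were called, so that run does not measure error rates in such a setting. Nothing in the labels says the mice were separate experiments, so p-values measure the spread between these mice. Levels are relative to the total of each mouse.

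The members and gene lists were chosen with earlier results of these data known. Named genes were all members, up to 4 called genes with the smallest p per list, the 3 genes nearest to Trp53, and Cdkn1a, Mdm4, Cdkn2a, Bax, Bbc3, Pmaip1 and Wrap53. Gadd45b, Gadd45g, Sesn2, Isg20l2, Gtse1, Tigar, Trp63 and Trp73, the ratios, the promoter search and the count of nearest mice were chosen after values were seen. The alternatives comprised RLE and upper-quartile factors, totals alone, no low-count filter, a filter of over 1 CPM in at least 3 mice, limma-voom (limma 3.58.1), DESeq2 1.42.0, each run alone, the mouse number as a block, leaving out each mouse, and, added after seeing the data, leaving out both untreated mouse 3 and doxycycline mouse 2.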

Additional observations from a re-analysis of the deposited data

How the results depend on the processing

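Trp53, Aen, Mdm2, Sesn1, Trp53inp1 and Gadd45a kept their direction and their call in 17 of 17 alternatives, and Ccng1 passed in none. Phlda3 passed in 7 of 17, and Zmat3 in 2. The number of members that rose was 4, or 5 without untreated mouse 3 and without both untreated mouse 3 and doxycycline mouse 2, and the number that fell was 2 or 3. The median log2 difference of the members was 0.47 without both of those mice, a setting chosen after seeing the data, and between 0.18 (without untreated mouse 2) and 0.45 (without untreated mouse 3) with each mouse left out in turn. No listed result reversed a call. Other size factors moved the median of all genes by less than 0.1 log2 units. Where 1 mouse of a group was left out, the fit assumes that the rest vary alike. Counts per mouse were 0 for Eda2r, 11 to 25 for Pmaip1 and 57 to 129 for Phlda3, and how far depth sets their spread was not tested.

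With the mouse number as a replicate block, 4 members rose and 3 fell, and of the other pathway genes 13 rose and 12 fell (15 and 13 without it). Deviations of same-numbered mice from their group means correlated across genes at 0.156, -0.012 and -0.103, and not every mouse correlated best with its own number. With 3 mice per group such deviations depend on each other, so these values cannot decide whether the numbers pair the mice.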
